A study of Mus musculus with 25 samples.

Results

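Embryoid bodies (EBs) exposed to 4OHPCB, a hydroxylated pentachlorobiphenyl, were compared with EBs exposed to T3, DEX or TCDD at the same doses of 1 and 10 nM. The comparison was chosen by sample title and holds 2 arrays of 4OHPCB and 6 of the others, 8 of the 25 arrays of the study. E2 and DHT were given at these doses too and were not in the reference. In the authors' normalized table their arrays, with those of BPA and DMSO, had medians of 11.5 to 11.6, and the other 18 arrays of 13.5 to 13.6. These medians are of signal and not of log2 signal. All arrays measured RNA of mouse embryonic stem cells (mESCs) of line B6G-2, on a C57BL/6 background and from a mouse that expresses GFP constantly. The cells had been expanded on inactivated mouse fibroblasts, moved to gelatin with LIF, the cytokine that keeps mESCs undifferentiated, and formed into EBs in the wells of a microsphere array. Chemicals in DMSO were added when LIF was withdrawn, and RNA was taken after 48 h and read on Illumina Mouse WG-6 bead arrays. The groups were 4OHPCB at 1 and 10 nM, T3 (triiodothyronine) at 1 and 10 nM, DEX (dexamethasone) at 1 and 10 nM, TCDD (the chlorinated dioxin) at 1 and 10 nM, and the solvent DMSO alone on 1 array. Arrays of the remaining chemicals are set beside these groups in places. E2 (estradiol) and DHT (dihydrotestosterone) were at 1 and 10 nM, and BPA (bisphenol A) at 1 and 100 pM. TMD (thalidomide), PMT (permethrin) and CPM (cyclopamine) were at 100 nM and 0.01 mM. DEHP (a phthalate) and MPA (methoprene acid) were at 0.001 and 0.1 mM. Each chemical and dose had 1 array, so the doses of a chemical stood in for replicates. The labels do not say that arrays came from separate cultures, and p-values here measure only the spread between doses, which may be technical. One cell line was used, and which arrays shared a chip is not given in the sources used here, so chip and chemical cannot be told apart.

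T3, DEX and TCDD act through ligand-activated transcription factors. T3 binds the thyroid hormone receptors, DEX binds the glucocorticoid receptor, and TCDD binds the aryl hydrocarbon receptor. Hydroxylated PCBs are metabolites of polychlorinated biphenyls whose phenol ring resembles that of thyroid hormones, and they are known to bind the transport protein transthyretin. In EBs the outer cells become primitive endoderm, under GATA and SOX factors, and then visceral endoderm, which takes up nutrients through endocytic receptors, or parietal endoderm, which lays down a thick basement membrane. The inner cells keep pluripotency factors such as Oct4 and Nanog for some days before they form the other germ layers.

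Levels are given as log2 signal after background correction and quantile normalization over the 25 arrays, so that a difference of 1 is a doubling. The 4OHPCB arrays detected 15513 and 15718 probes at a detection p under 0.01, and the 6 others 15254 to 16284. The mean raw signal was 661 to 703 on the 4OHPCB arrays and 457 to 641 on the others, and the part of this in the results was not tested. Of 45281 probes, 19140 were kept, which gave 10656 genes with 1 probe each, the brightest. The labelled cell type was checked on its markers, with log2 signals on the 8 arrays of 12.79 to 12.998 for Pou5f1 (Oct4) and 11.02 to 11.83 for Nanog. Pou5f1 and Nanog were detected on all 8 arrays.

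The 4OHPCB arrays stood apart from the others. A distance between arrays was taken as the root mean square log2 difference over the 10656 genes, as a description without a test. The 1 and 10 nM arrays of 4OHPCB were 0.298 apart, which lay among the 0.281, 0.307 and 0.317 between the doses of T3, DEX and TCDD. At a matched dose T3, DEX and TCDD lay 0.300 to 0.323 from each other, little more than the doses of 1 chemical. 4OHPCB lay farther from each of them, at 0.440 from T3, 0.485 from DEX and 0.483 from TCDD at 1 nM. At 10 nM these distances were 0.472, 0.498 and 0.542. In single genes, 386 to 731 differed by more than 1 on the log2 scale between 4OHPCB and another chemical at the same dose, and 80 to 135 between 2 of the other chemicals.

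**Figure D1:**
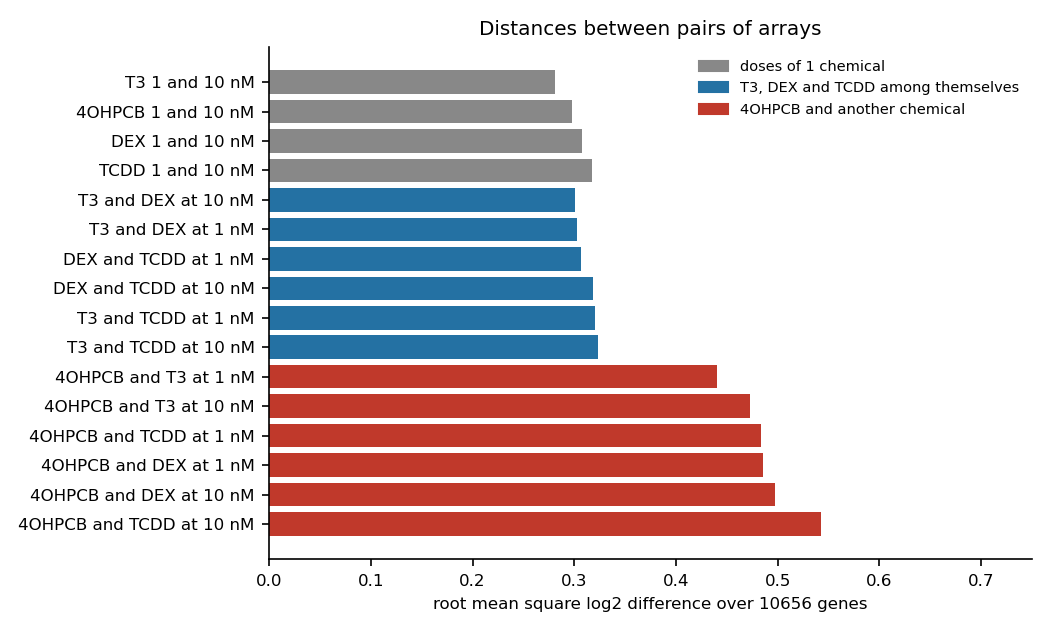
Distance between pairs of arrays as the root mean square log2 difference over 10656 genes (x axis), for the doses of 1 chemical (grey), for T3, DEX and TCDD at a matched dose (blue) and for 4OHPCB against each of them (red). The red bars run from 0.440 to 0.542 and the others from 0.281 to 0.323.

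Against the mean of T3, DEX and TCDD, 1254 of 10656 genes were higher with 4OHPCB (11.8%) and 1834 were lower (17.2%) at an adjusted p under 0.05, by limma over all kept probes. Both 4OHPCB arrays lay above all 6 others in 1650 genes (15.5%) and below them in 2579 (24.2%). The median difference over all genes was -0.067, and the median size of a called difference was 0.54. With 1 array fewer the counts were most reduced without the 10 nM array of 4OHPCB, where 633 genes were higher and 828 lower. When the methods' t-test was used with Benjamini-Hochberg adjustment, 861 were higher and 1450 lower.

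Compared with each chemical in turn, with p-values adjusted over the 3 pairs together, 4OHPCB differed from all of them in many genes. Against T3, an iodinated amino acid with a phenol ring, 721 genes were higher (6.77%) and 1076 lower (10.1%). Against DEX, a fluorinated steroid, 896 were higher (8.41%) and 1261 lower (11.8%). Against TCDD, a flat chlorinated dioxin that carries no hydroxyl group, 1017 were higher (9.54%) and 1370 lower (12.9%). Whether these counts differ among the pairs was not tested, and the comparisons share the 4OHPCB arrays. They rested on 2 arrays a side. Against T3 they fell to 340 and 488 without the 10 nM array of 4OHPCB, to 473 and 696 without that of T3 at 1 nM, and to 479 and 645 without that of T3 at 10 nM. Against DEX they were 486 and 602 without the 10 nM array of 4OHPCB, 555 and 706 without DEX at 1 nM, and 607 and 813 without DEX at 10 nM. Against TCDD they were 583 and 655 without the 10 nM array of 4OHPCB and 638 and 737 without TCDD at 10 nM.

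Genes of the extraembryonic endoderm and its matrix were lower with 4OHPCB. Of 13 genes of the basement membrane and parietal endoderm, 12 were lower and 0 higher, with a median difference of -1.17. Over all genes 17.2% were lower and the median was -0.067. Of 7 measured transcription factors of the primitive endoderm, 6 were lower and 0 higher (median -1.03). Of 15 measured receptors and secreted proteins of the visceral endoderm, 10 were lower and 0 higher (median -0.76). In bulk RNA, fewer endoderm cells and less RNA of these genes per cell cannot be told apart.

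Collagen IV is the network-forming collagen of basement membranes, and its chains alpha 1 and alpha 2 are made from Col4a1 and Col4a2, which lie head to head. Their promoter windows (250 bases before to 50 after the start in RefSeq, build GRCm38.p6) are shown because the genes share them and moved together. That of Col4a1 lies at chr8:11312777-11313076 on the minus strand and that of Col4a2 at chr8:11312555-11312854 on the plus strand. Capitals mark the 78 bases that both windows hold, each written 5′ to 3′ on its own strand.
Col4a1: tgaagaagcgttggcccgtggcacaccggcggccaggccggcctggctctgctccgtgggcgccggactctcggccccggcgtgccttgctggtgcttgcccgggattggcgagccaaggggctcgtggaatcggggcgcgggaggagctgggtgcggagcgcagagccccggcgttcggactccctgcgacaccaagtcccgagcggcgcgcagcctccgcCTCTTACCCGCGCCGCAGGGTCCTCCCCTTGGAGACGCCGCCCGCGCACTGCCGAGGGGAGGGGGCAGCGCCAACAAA
Col4a2: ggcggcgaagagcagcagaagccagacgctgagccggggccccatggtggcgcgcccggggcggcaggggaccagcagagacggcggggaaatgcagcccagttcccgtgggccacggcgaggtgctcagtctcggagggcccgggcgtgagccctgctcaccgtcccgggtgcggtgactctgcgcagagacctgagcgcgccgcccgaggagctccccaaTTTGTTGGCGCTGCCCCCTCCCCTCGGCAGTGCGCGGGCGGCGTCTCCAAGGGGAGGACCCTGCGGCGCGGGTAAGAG
Parts of the sites of 3 kinds of factor were looked for on either strand. GATAA, for GATA factors, was in neither window and in 25.4% of 32851 such windows. CATTGT, for SOX factors, was in neither and in 12.6% of all. TTTGCAT, for octamer-binding factors, was in neither and in 4.63% of all.

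Col4a1 had log2 signals of 11.61 at 1 nM and 11.67 at 10 nM 4OHPCB, and of 13.32 to 13.55 (median 13.41) on the 6 other arrays. Col4a2 had 10.71 and 10.92 with 4OHPCB and 12.64 to 12.85 (median 12.74) on the others. For both genes the groups did not overlap and the gap was many times the spread within a group. The difference was -1.79 ± 0.13 (SE, 12 residual degrees of freedom) for Col4a1 and -1.92 ± 0.13 for Col4a2, with adjusted p-values of 2.66e-11 and 1.76e-11, or 3.45-fold and 3.78-fold lower.

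Lama1 encodes the alpha chain of the main early laminin of the embryo. It read 11.74 and 11.61 with 4OHPCB and 13.33 to 13.82 (median 13.51) on the others, which was 3.59-fold lower (-1.85 ± 0.12, adjusted p = 9.1e-12). Lamc1, which encodes the gamma chain, was lower by less (-1.11 ± 0.099, adjusted p = 1.23e-09). Lamb1, the beta chain, read 7.28 and 6.11 with 4OHPCB against 6.97 to 7.46 and did not pass (-0.57 ± 0.23, adjusted p = 0.0659), as its 1 nM array lay within the range of the others and only its 10 nM array below it. Of the proteins that link or process the matrix, Sparc, a collagen-binding glycoprotein, fell by 1.17 on the log2 scale. Serpinh1, the collagen chaperone of the endoplasmic reticulum, fell by 1.20, and P4ha2, which hydroxylates collagen prolines, fell by 1.19. The nidogens, which tie laminin to collagen IV, were lower too, Nid2 by more (-0.94) than Nid1 (-0.55). Fst, the activin-binding follistatin, fell from a median of 8.65 to 6.97 and 6.95 (-1.71 ± 0.13, adjusted p = 3.91e-11). Plat, a plasminogen activator of parietal endoderm, fell by 1.10. Thbd, or thrombomodulin, passed narrowly (-0.61, adjusted p = 0.0478) but was detected on 1 of the 8 arrays, and its groups overlapped.

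Among the transcription factors, Sox7 changed most. It read 8.75 and 8.85 with 4OHPCB and 10.12 to 10.46 (median 10.36) on the others, with no overlap (-1.54 ± 0.12, adjusted p = 1.6e-10). Sox17, its close relative, read 8.18 and 7.98 against 8.99 to 9.27 (-1.03 ± 0.13, adjusted p = 7.28e-07). Gata6, which directs cells to the primitive endoderm, read 9.71 and 9.99 against 10.78 to 11.02 (-1.05 ± 0.12, adjusted p = 7.27e-08). In each of these genes both 4OHPCB arrays lay below every other of the 8. Foxq1, a forkhead factor, fell by 1.34 on the log2 scale (adjusted p = 6.52e-10), and Hnf4a, a nuclear receptor of visceral endoderm and liver, fell by 0.72 (adjusted p = 0.00687). Foxa2 was not detected with 4OHPCB and was detected on 5 of the other 6 arrays, so that only a bound of at least 1.11-fold could be given. Gata4 was detected on none of the 8 arrays.

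In the visceral endoderm, Amn, Cubn and Lrp2 encode the receptors that take up protein from the maternal side, with Dab2 as their adaptor inside the cell. Amn (amnionless) read 12.26 and 12.34 with 4OHPCB and 13.54 to 13.82 (median 13.63) on the others. The groups were far apart, and the difference was -1.35 ± 0.11 (adjusted p = 3.44e-10), with -1.26 against T3, -1.40 against DEX and -1.40 against TCDD. The differences of the other 3, all lower, were -0.77 ± 0.16 for Lrp2 (megalin), -0.70 ± 0.15 for Cubn (cubilin) and -0.66 ± 0.081 for Dab2. The largest changes of the list were in Habp2, a secreted protease, which read 7.51 and 7.62 against 8.9997 to 9.44 (-1.64 ± 0.18, adjusted p = 4.99e-08), and in Slc39a8, a zinc and manganese transporter (-1.42 ± 0.21). Dpp4, a peptidase of the cell surface, fell by 1.32. Apoa1 was not detected on the 4OHPCB arrays and was at least 1.79-fold higher on the others. Apoe, which many cell types make, read 12.11 and 12.43 against 12.04 to 12.34 and did not pass (0.032 ± 0.099, 95% interval -0.17 to 0.23). Ttr, which encodes the transthyretin named above, read 8.96 and 9.12 against 9.37 to 9.70 (-0.54 ± 0.15, adjusted p = 0.00619).

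**Figure D2:**
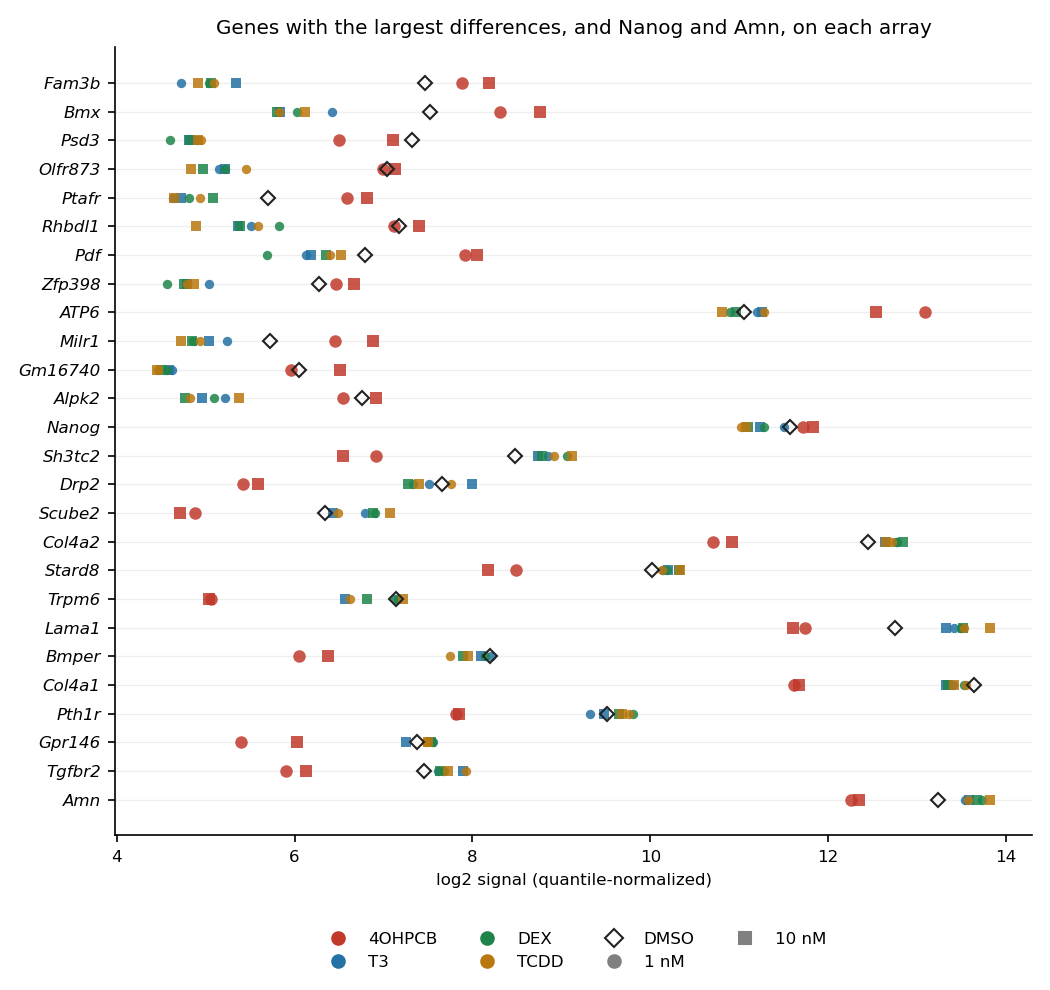
Log2 signal (x axis) of the 12 genes with the largest called differences in each direction, and of Nanog and Amn, on the 2 4OHPCB arrays (red), the 6 arrays of T3, DEX and TCDD (blue, green, ochre; circle 1 nM, square 10 nM) and DMSO (open diamond). In all 26 genes the red points lie outside the range of the 6 others, as the choice of the genes required for 24 of them.

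Lysosomal genes, which endoderm uses to digest what it takes up, were lower in 7 of 11, beside 17.2% of all genes, and higher in 0 (median -0.35). Ctsc, a cysteine protease, read 10.08 and 10.00 with 4OHPCB and 11.25 to 11.39 on the others (-1.27 ± 0.096, adjusted p = 5.95e-11). Ctsh fell by 1.04 and Ctsl by 1.01, and Lamp1, a protein of the lysosomal membrane, fell by 0.73. Psap, the saposin precursor (-0.061), and Ctsa (-0.015) did not pass.

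Of the 4 core pluripotency factors, Nanog and Sall4 passed the test as higher, beside 11.8% of all genes. The mean level of the 4 was 12.06 and 11.99 with 4OHPCB and 11.58 to 11.90 on the others, without overlap. It was 12.10 to 12.15 on the arrays of TMD, PMT and CPM, above 4OHPCB, and 11.95 and 11.93 with BPA. This mean takes in Sall4 by its brightest probe, whose direction another probe did not share. Nanog read 11.72 and 11.83 with 4OHPCB and 11.02 to 11.50 (median 11.16) on the others, without overlap (0.57 ± 0.12, 1.49-fold, adjusted p = 0.000748), and a second probe gave 0.39 (adjusted p = 0.0209). By pair, Nanog passed against DEX (0.59, adjusted p = 0.00607) and TCDD (0.73, adjusted p = 0.000898) but not against T3 (0.41, adjusted p = 0.0546). Pou5f1 read 12.998 and 12.94 against 12.79 to 12.996, and its difference was 0.067 ± 0.086 with a 95% interval of -0.11 to 0.24. Sox2 was 0.26 ± 0.11 (adjusted p = 0.0886) by its brightest probe and 0.64 by another (adjusted p = 0.00808). The probes of Sall4 disagreed, at 0.31 for the brightest (adjusted p = 0.0056) and -0.73 for the next (adjusted p = 0.000253), so no direction can be given for that gene. Without the 1 nM array of 4OHPCB, 1 of the 4 passed.

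The promoter window of Nanog is shown because it holds an octamer part and a SOX site side by side, the element through which Oct4 and Sox2 are known to act on this gene. It lies at chr6:122707239-122707538 on the plus strand (GRCm38.p6, RefSeq), and capitals mark TTTGCAT and, 1 base on, ACAATG, which is CATTGT on the other strand.
Nanog: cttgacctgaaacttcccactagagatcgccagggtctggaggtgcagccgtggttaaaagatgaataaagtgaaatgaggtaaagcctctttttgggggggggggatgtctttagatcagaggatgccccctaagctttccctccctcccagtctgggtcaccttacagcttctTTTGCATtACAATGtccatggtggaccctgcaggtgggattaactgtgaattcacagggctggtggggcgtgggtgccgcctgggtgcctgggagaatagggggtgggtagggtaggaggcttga
These strings stood 1 base apart in this way on either strand in 2 of 32851 windows, and both were windows of Nanog, which has a pair of annotated starts. A match is a string of letters and not a measured binding site.

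Of 18 measured genes of the naive state, 4 were higher and 3 lower (median -0.038), beside 11.8% and 17.2% of all genes. Tdgf1 (Cripto), the coreceptor of Nodal, read 10.53 and 10.71 with 4OHPCB and 9.35 to 9.84 (median 9.48) on the others (1.08 ± 0.14, 2.11-fold, adjusted p = 8.33e-07). Its 4OHPCB values were also above those of all other 23 arrays. Dppa2, a chromatin factor, was higher by 0.79 ± 0.14, Zfp42 (Rex1) by 0.43 ± 0.14 and Utf1 by 0.25 ± 0.088. Klf5 (-0.65 ± 0.10), Nr5a2 (-0.51 ± 0.15) and Esrrb (-0.34 ± 0.10), transcription factors of the naive network, were lower. Of 8 genes of the primed epiblast and of DNA methylation, Lin28b was higher (0.83 ± 0.22, adjusted p = 0.0051). Fgf5, the usual marker of the primed state, was lower (-0.94 ± 0.13), as were Dnmt3l (-0.35) and Dnmt3b (-0.32). In the 22 genes that the study lists as pluripotent, 6 of 20 measured were higher and 3 lower, beside 11.8% and 17.2% of all genes.

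Between 1 and 4 measured genes passed in each of the Nodal, BMP, FGF and Wnt pathways, beside 29% of all genes. Besides Tdgf1, 0 of the other 6 measured genes of the Nodal pathway passed, and Nodal itself was at 12.07 and 12.12 against 12.04 to 12.18. In the BMP pathway, Id1, a direct target that blocks differentiation factors, fell by 1.09 and the ligand Bmp4 fell by 0.69, 2 of 6 measured. In the FGF pathway 4 of 11 were lower, the ligand Fgf5, the receptor Fgfr2 (-0.43), the ETS factor Etv5 (-0.44) and the phosphatase Dusp4 (-0.73), and 0 were higher. Axin2, a target of Wnt signals, was the only one of 7 measured Wnt genes to pass (-0.48 ± 0.16, adjusted p = 0.028). Tgfbr2, the TGF-beta receptor, was among the 12 largest decreases, at 5.90 and 6.13 against 7.61 to 7.92 (-1.73 ± 0.19, adjusted p = 8.3e-08), and lay below all other 23 arrays. Its second probe was not detected on any of the 8 arrays. Of 7 measured mesoderm genes 3 were lower, led by Pdgfra (-1.47 ± 0.13), a receptor that primitive endoderm also carries. Kdr and Evx1 were not detected with 4OHPCB and were on 4 of the other 6 arrays each. Brachyury, Mixl1 and Mesp1 had no probe past the detection filter.

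**Figure D3:**
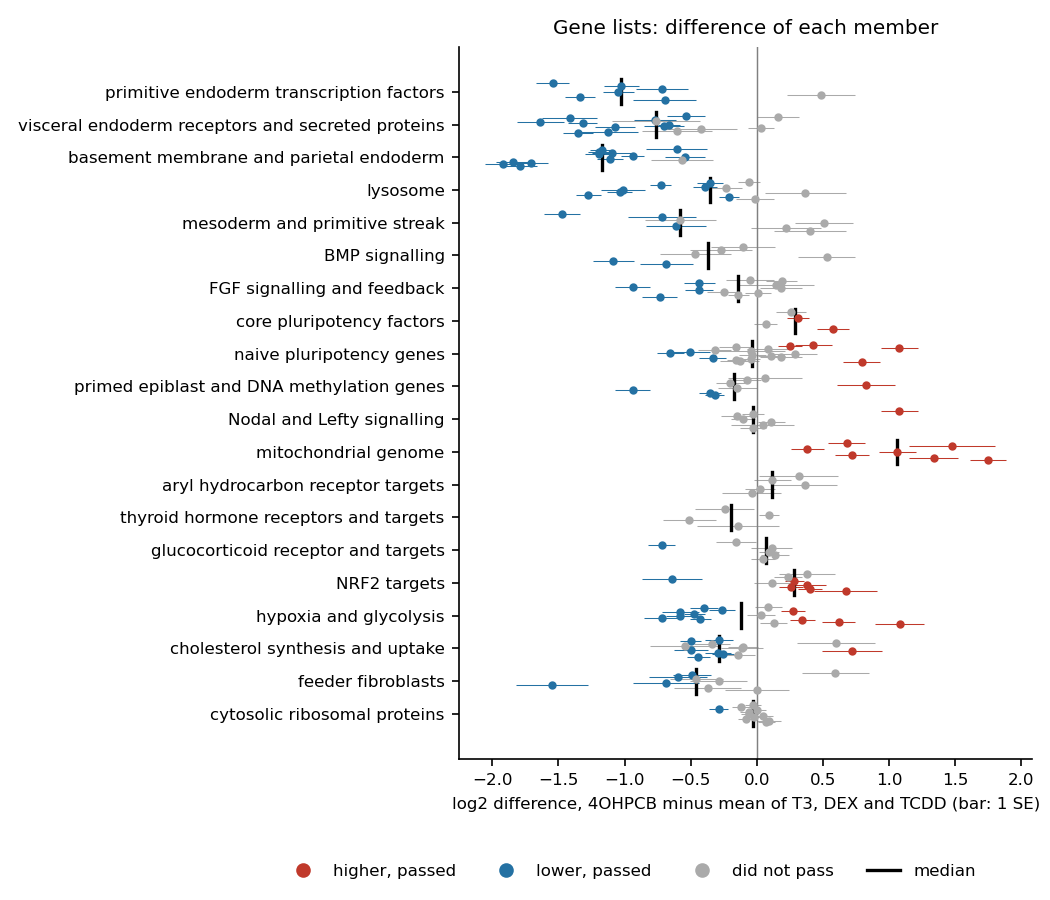
Log2 difference of each measured gene of 20 lists between 4OHPCB and the mean of T3, DEX and TCDD (x axis; bars 1 SE, vertical marks the median of a list), red where higher and blue where lower at an adjusted p under 0.05 and grey otherwise. The 3 endoderm lists have medians of -1.03, -0.76 and -1.17, and the mitochondrial list 1.06.

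The largest increase was in Fam3b, which encodes a secreted protein known from pancreatic islets. It read 7.89 at 1 nM and 8.19 at 10 nM 4OHPCB, and 4.72 to 5.35 (median 5.05) on the 6 others, where it was not detected on any array. With the lowest detected signal in place of an undetected one, Fam3b was at least 4.42-fold higher (adjusted p = 5.96e-12). DMSO read 7.47, close to 4OHPCB, and the difference to it was 0.57 (adjusted p = 0.163). On the 16 arrays of the remaining chemicals Fam3b ranged from 4.77 to 8.29 with a median of 7.77. The BPA arrays, at 5.02 and 4.77, were as low as those of T3, DEX and TCDD. The low side of this contrast was thus that of T3, DEX and TCDD, shared with BPA. The arrays of these chemicals follow each other in the sample order of the series, so chemical and place in that order cannot be told apart.

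Bmx, a tyrosine kinase of the Tec family, followed with 8.32 and 8.76 against 5.80 to 6.42 (2.53 ± 0.19, adjusted p = 6.79e-11). It was detected on 3 of the other 6 arrays, so the size rests partly on background signal. Both values lay above all other 23 arrays, of which DMSO had 7.53. Psd3, an exchange factor for the small GTPase ARF6, read 6.50 and 7.11 against 4.59 to 4.95 and was at least 1.88-fold higher, and DMSO was higher still at 7.33. Among receptors of the cell surface, Ptafr, the receptor of platelet-activating factor, was at least 1.75-fold higher, Milr1, an immunoglobulin-like receptor of mast cells, at least 1.71-fold, and Olfr873, an olfactory receptor, at least 2.25-fold. Rhbdl1, a rhomboid-like membrane protein, read 7.12 and 7.40 against 4.89 to 5.82, where it was detected on 1 of 6 arrays (adjusted p = 8.36e-08). Pdf, the mitochondrial peptide deformylase, read 7.91 and 8.05 against 5.69 to 6.52 (1.77 ± 0.23). Alpk2, an alpha kinase, was at least 1.79-fold higher by its brightest probe, while its other probe was not detected with 4OHPCB and did not pass (adjusted p = 0.721). Gm16740 was at least 1.27-fold higher. For Zfp398 the brightest probe gave at least 1.59-fold higher, but another fell by 0.70 (adjusted p = 0.0174) and the mean of its probes differed by 0.19 (adjusted p = 0.482), so its direction was not settled. Of the 12 largest increases, DMSO lay nearer to 4OHPCB than to T3, DEX and TCDD in 8, and the median of the remaining 16 arrays did in 11. Olfr873 read 7.03 on DMSO and 6.99 and 7.13 with 4OHPCB, but 4.51 and 4.80 with BPA. Over the 1254 higher genes, 97 were detected on none of the 6 arrays of T3, DEX and TCDD.

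The decreases outside the endoderm lists were led by Sh3tc2, which encodes an adaptor of endosomal recycling known from Schwann cells. It read 6.92 and 6.54 with 4OHPCB and 8.74 to 9.12 (median 8.88) on the others, and DMSO read 8.48 (-2.18 ± 0.20, 4.53-fold, adjusted p = 1.68e-09). Drp2, a relative of dystrophin, read 5.41 and 5.59 against 7.28 to 8.00, was not detected with 4OHPCB and was at least 3.09-fold lower. Scube2, a secreted protein that helps release Hedgehog, was at least 1.79-fold lower and Trpm6, a magnesium channel, at least 2.00-fold lower. Stard8 read 8.49 and 8.17 against 10.13 to 10.33 (-1.89 ± 0.13, adjusted p = 2.07e-11), and its second probe gave -1.42. Bmper, a secreted protein that binds BMPs, fell by 1.79 and Gpr146, an orphan receptor, by 1.77. Pth1r, the receptor of parathyroid hormone-related protein, read 7.81 and 7.85 against 9.33 to 9.80 (-1.79 ± 0.14, adjusted p = 1.12e-10), and its 3 probes all passed as lower. Over the 1834 lower genes, 166 were not detected on either 4OHPCB array.

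Transcripts of the mitochondrial genome were higher with 4OHPCB. This list was made after values had been seen, and 7 of its 13 protein genes were measured. Of these, 7 were higher and 0 lower (median 1.06), beside 11.8% and 17.2% of all genes. ATP6, a subunit of ATP synthase, read 13.09 and 12.53 with 4OHPCB and 10.80 to 11.28 on the others (1.75 ± 0.14, 3.36-fold, adjusted p = 1.12e-10). COX2, a subunit of cytochrome oxidase, read 11.61 and 11.65 against 9.73 to 10.58 (1.34 ± 0.19), and ND1, a subunit of complex I, 14.02 and 13.75 against 12.59 to 12.98 (1.06 ± 0.14). CYTB (0.72), ND5 (0.68) and ND4 (0.38) rose by less. ND4L (1.48) was detected on 2 of the other 6 arrays. Pieces of mitochondrial DNA also lie in the nuclear genome, and which copy a probe reads was not tested. Over the list, the mean level was 12.24 at 1 nM and 12.04 at 10 nM 4OHPCB, 10.64 to 11.27 on the 6 others and 10.51 to 12.24 on the remaining 16. DEHP (12.23 and 12.13) and MPA (12.21 and 12.24) lay as high as 4OHPCB, and DMSO lay at 11.24. ATP6 read 12.17 to 12.85 with TMD, DEHP, PMT, CPM and MPA, 10.52 to 11.14 with E2, DHT and BPA, and 11.05 on DMSO. The high level was thus shared with the arrays of other chemicals. In the sample order of the series, ATP6 was high on 4OHPCB and every array after it, and low on every array before it. Chemical and place in that order cannot be told apart.

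The receptors of T3, DEX and TCDD have well-known target genes. Few of these passed the test between 4OHPCB and the ligands, beside 29% of all genes. The lists held 4 to 6 measured genes each, too few to set apart from that share. Of 5 measured genes of the aryl hydrocarbon receptor pathway, 0 passed against the mean of the 3 chemicals. Cyp1b1, a cytochrome P450 induced by that receptor, read 5.53 and 5.99 with 4OHPCB, 6.11 and 5.76 with TCDD, 5.36 and 5.36 with T3 and 5.03 and 4.74 with DEX, near the limit of detection. Against TCDD its difference was -0.18 with a 95% interval of -0.79 to 0.43, and against DEX it was 0.88 (adjusted p = 0.0382). Nqo1, a quinone reductase, differed from TCDD by 0.053 (-0.30 to 0.40), and Cyp1a1 had no probe past the detection filter. For thyroid hormone, 0 of 4 measured genes passed. Klf9, a zinc finger factor induced by T3, differed from T3 by 0.095 (-0.10 to 0.29), and Hr (hairless), a corepressor of the receptor, by -0.35 (-0.85 to 0.15). For glucocorticoid, Fkbp5, a chaperone of the receptor, differed from DEX by 0.12 (-0.14 to 0.39) and Tsc22d3 by -0.38 (-0.75 to -0.0036, adjusted p = 0.151). Sgk1, a kinase induced by glucocorticoids, read 12.44 and 12.07 with 4OHPCB against 12.89 to 13.15 on the others and was the 1 of 6 to pass (-0.72 ± 0.10, adjusted p = 2.9e-06). Its difference was -0.67 from T3, -0.72 from DEX and -0.77 from TCDD. Genes that missed the threshold are not shown to respond alike.

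Stress and metabolic genes moved in both directions, and the same shares of all genes apply to each count here. Of 9 measured targets of NRF2, which responds to electrophiles and oxidants, 5 were higher and 1 lower, beside 11.8% and 17.2% of all genes. They included both subunits of the enzyme that makes glutathione, Gclm (0.41 ± 0.091, adjusted p = 0.00122) and Gclc, which was detected on 1 of the 8 arrays, and the peroxidase Prdx1 (0.28). The cystine transporter Slc7a11 was detected on 4 of the 6 other arrays and on neither 4OHPCB array. Of 14 measured genes of hypoxia and glycolysis, 4 were higher and 7 lower. Adm, which encodes the peptide adrenomedullin, read 9.75 and 9.89 against 8.14 to 9.05 (1.08 ± 0.19, adjusted p = 6.02e-05), and lay above all other 23 arrays. Ankrd37 was higher by 0.62, while the glycolytic enzymes Pfkp (-0.58), Pfkl (-0.47) and Ldha (-0.43) and the hypoxia gene Ndrg1 (-0.72) were lower. In cholesterol synthesis and uptake 6 of 13 were lower, by 0.26 for Fdps to 0.50 for Sqle as the fall on the log2 scale, and Idi1 was higher (0.72). The cytosolic ribosomal proteins were nearly level, with 1 of 11 lower (Rps4x, -0.29) and a median of -0.029.

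Of the 15 measured genes that the study lists for neural development, 2 were higher and 1 lower, beside 11.8% and 17.2% of all genes. Nes (0.63, adjusted p = 0.0444) and Map2k1 (0.68, adjusted p = 0.0287) were higher and Shc1 (-0.29) was lower. Sox1, Pax6 and Dcx had no probe past the detection filter. Stra8, which germ cells use to enter meiosis, was detected on both 4OHPCB arrays (6.53 and 6.89) and none of the other 6 (4.57 to 5.60), and was at least 1.76-fold higher. Rhox5, a homeobox gene of the X chromosome, fell by 0.61. Among cell cycle genes 2 of 12 were higher, beside 11.8% of all genes, Pcna, the clamp of DNA replication (1.01 ± 0.23), and Ccne1 (0.50 ± 0.11), and Aurka was lower (-0.24).

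Fibroblasts, on which the cells had been expanded, were checked by 12 marker genes, of which 9 were measured. With 4OHPCB 4 of these were lower and 0 higher, beside 17.2% and 11.8% of all genes. The mean level of the 9 was 6.22 and 6.07 at 1 and 10 nM 4OHPCB, 6.50 to 6.67 with T3, DEX and TCDD, and 5.58 to 6.82 on the remaining 16 arrays. Of the defining markers, Col1a1 was detected on none of the 8 arrays, Col1a2 on 1, and Col3a1, Postn and Lum had no probe past the filter. Col6a1 was at least 2.58-fold lower with 4OHPCB, and Thy1, which read 8.66 and 8.48 against 8.96 to 9.20, fell by 0.49. The part of fibroblasts in the endoderm result was not tested. Trophoblast markers Cdx2 and Elf5 were detected on none of the 8 arrays.

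The differences were alike at both doses. Of the 3088 genes called in either direction (29% of those tested), 3087 had the same sign at 1 and 10 nM, where each 4OHPCB array was set against the mean of T3, DEX and TCDD at its dose. Both doses entered the test, which favours such genes. The difference was larger at 10 nM in 1867 genes, and the 4OHPCB arrays themselves differed by a median of 0.16 in the called genes. Amn differed by -1.36 and -1.35, Nanog by 0.46 and 0.69, and Sh3tc2 by -2.02 and -2.34.

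**Figure D4:**
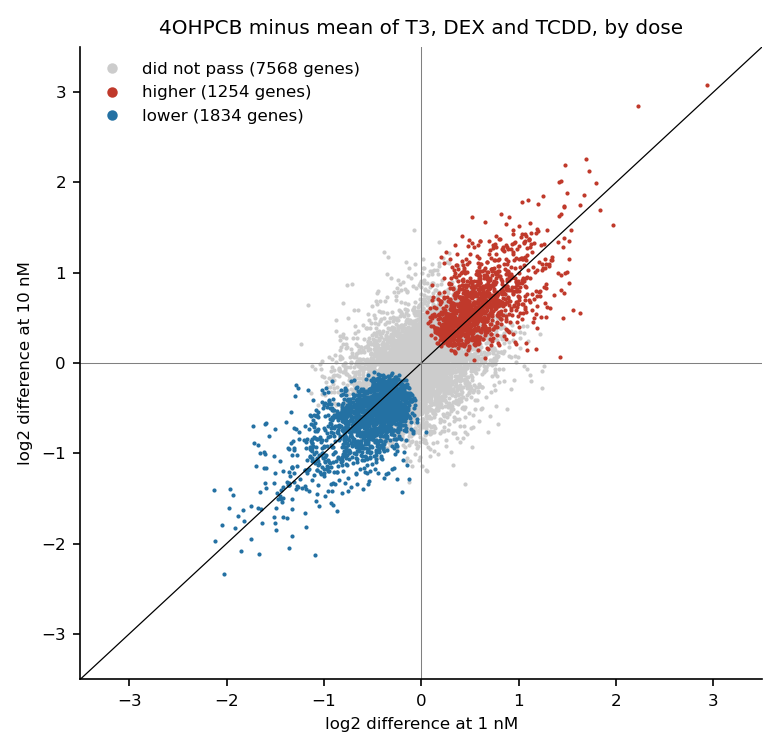
Log2 difference between 4OHPCB and the mean of T3, DEX and TCDD at 1 nM (x axis) and 10 nM (y axis) for 10656 genes, with 1254 called higher in red, 1834 called lower in blue and the rest in grey; the line marks equal differences. Of the called genes 3087 of 3088 have the same sign at both doses.

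The remaining arrays show how particular the contrast is. Of the 1254 higher genes, the median of the 16 arrays of the other chemicals lay nearer to 4OHPCB than to T3, DEX and TCDD in 834 (66.5%), and DMSO did in 257 (20.5%). Of the 1834 lower genes, these numbers were 1013 (55.2%) and 454 (24.8%). Both 4OHPCB arrays lay beyond all other 23 arrays in 124 of the higher genes (9.89%) and 137 of the lower (7.47%). Against DMSO itself, 971 genes were higher with 4OHPCB (9.11%) and 1329 lower (12.5%), with the single DMSO array assumed to vary like the others. In the authors' normalized table the balance turned, with 2281 higher and 504 lower. Of the endoderm genes, 9 of 13 basement membrane genes, 7 of 15 visceral endoderm genes and 4 of 7 transcription factors were lower than on DMSO. Amn was lower than on DMSO by -0.94 (adjusted p = 0.000188) and Sh3tc2 by -1.75 (adjusted p = 8.94e-05), while Nanog differed by 0.21 (adjusted p = 0.456).

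The mean level of the basement membrane genes was 9.84 and 9.76 at 1 and 10 nM 4OHPCB, 10.95 to 11.08 on the arrays of T3, DEX and TCDD, and 10.91 on DMSO. Among the remaining chemicals, each at its own doses, it was 9.70 to 9.98 on the 6 arrays of TMD, PMT and CPM, whose range takes in 4OHPCB, and lower still on those of BPA at 9.01 and 8.98. DEHP and MPA lay at the other end, with 11.70 to 12.04. For the visceral endoderm genes the mean was 8.39 and 8.40 with 4OHPCB, 9.09 to 9.28 with T3, DEX and TCDD, 8.09 to 8.28 with TMD, PMT and CPM, and 7.31 and 7.33 with BPA. On both lists the arrays of 5 chemicals, 4OHPCB among them, lay more than 0.5 below DMSO, so that the low level was shared with others.

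**Figure D5:**
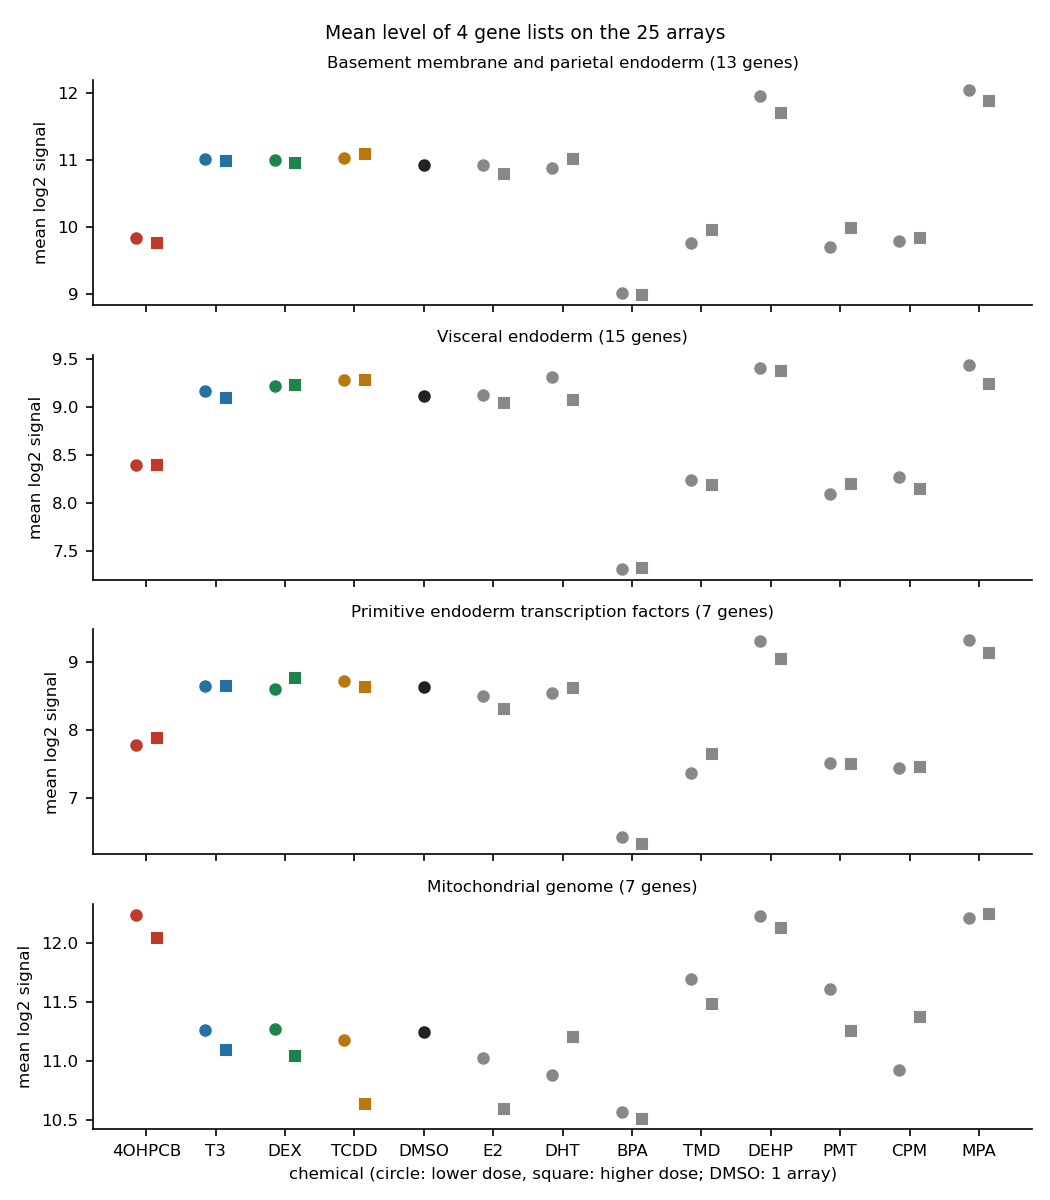
Mean log2 signal (y axis) of the measured genes of 4 lists on each of the 25 arrays, by chemical (x axis; circle lower dose, square higher dose; DMSO 1 array). For the basement membrane genes 4OHPCB (red) lies at 9.76 to 9.84, beside TMD, PMT and CPM, while T3, DEX and TCDD lie at 10.95 to 11.08, beside DMSO at 10.91.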

How the data were processed

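RNA of EBs was read on 25 Illumina arrays. The authors deposited bead intensities with a detection p-value per probe, not normalized, and a normalized table, made in GeneSpring. The values of that table are signal, and log2 was taken of them here. The methods speak of triplicates, and whether arrays hold pooled RNA is not stated. Intensities were corrected with nec (offset 16), quantile normalized and log2 transformed (limma 3.58.1, R 4.3.3). A probe was used if 2 or more arrays detected it (p under 0.01). A model with 1 coefficient per chemical was fitted to all 25 arrays (12 residual degrees of freedom; eBayes with trend), and p-values were adjusted over all 19140 probes (Benjamini-Hochberg) and, for the 3 pairs, over all pairs together. Precision is limited by the number of arrays, 2 per chemical. "At least" folds set an undetected signal to the lowest detected one of each array, or to its own if higher. The genes named are the 12 with the largest called difference in each direction where both 4OHPCB arrays lay beyond the 6 others, the 4 given by name, and members of the gene lists described. The chemicals compared, the members and the lists were chosen with earlier results of these data known. Gene symbols came from a platform annotation of a later array version (34885 of 45281 probes with 1 symbol). On simulated data for the main comparison (19140 probes, 50 changed at each size) 38% of log2 differences of 0.5, 88% of 1 and 100% of 2 were called, and 0.095% of unchanged probes. The simulated noise was independent between arrays, without chip effects, and far fewer probes were changed than were called in the data. These rates therefore do not cover false calls from a chip effect. The medians of the deposited table set DMSO apart from 4OHPCB, T3, DEX and TCDD. Alternatives changed the background correction, scaling, filter, reference, test and arrays used.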

Additional observations from a re-analysis of the deposited data

Results flagged for a closer look

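Of the 26 genes with the largest changes or given by name, 1 had a single array far from the others of its group. Gpr146, an orphan receptor, read 7.25 with T3 at 10 nM, while the other 5 arrays of T3, DEX and TCDD lay between 7.48 and 7.55. The gap to the nearest array was 0.754 of the whole range, above Dixon's critical value for 6 samples at the 95% level. About 1 in 20 groups passes this limit by chance. Both 4OHPCB arrays, at 5.40 and 6.03, lay below all 6.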

How the results depend on the processing

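Among the 26 genes with the largest changes or given by name, no gene changed sign under any alternative run. The other members of the gene lists were not followed gene by gene in these runs. The counts against T3, DEX and TCDD together ranged from 633 to 1211 higher and 828 to 1738 lower when 1 array was left out, with the lowest of both without 4OHPCB at 10 nM. They ranged against T3 from 340 to 522 and 488 to 800, against DEX from 486 to 630 and 602 to 905, against TCDD from 583 to 784 and 655 to 977, and against DMSO from 708 to 710 and 943 to 973. With the mean of the other 11 chemicals as the reference, 861 genes were higher and 1118 lower, and Amn differed by -0.30 (adjusted p = 0.0398), Fam3b by 1.24 and Psd3 by 0.63. Of 15 visceral endoderm genes 6 were then lower, beside 1118 of 10656 genes in all. With the authors' normalized table, 2281 genes were higher and 504 lower than on DMSO (81.9% of calls higher, 42.2% otherwise), and the median of all genes was 0.211 in place of -0.069, so the balance of calls against DMSO turned with the scaling. Zfp398 lost its call with the mean of its probes (0.19). An alternative added after the data were seen used only genes detected on all 25 arrays. There, 3 of 3 endoderm transcription factors and 4 of 6 visceral endoderm genes were lower, beside 1643 of 7537 genes in all. With the dose level (lower or higher) as 1 covariate shared by all 25 arrays, similar numbers were called: 1305 genes higher and 1903 lower.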
